A study of Mus musculus with 36 samples.

Results

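The 5S ribosomal RNA genes on these arrays are the genes whose symbol starts with n-R5s, read by probe sets that carry 1 gene symbol. They numbered 69 of the 65956 probe sets tested, after the brightest of 94 probe sets was kept for each symbol. RefSeq annotates 51 of them as rRNA genes and 18 as pseudogenes, so the name 5S gene covers both classes here. The study asked how light and the ERK MAPK pathway shape gene expression in the suprachiasmatic nucleus (SCN), the central circadian clock in the hypothalamus. RNA came from the SCN of C57BL/6J mice 8 to 14 weeks old, with 2 mice pooled for each array. All mice were held in constant darkness beforehand, carried a cannula in the lateral ventricle and were infused 30 min before the time of the light pulse. The infusion held 10 mM U0126, an inhibitor of the ERK kinases MEK1/2, in DMSO, or DMSO alone. Mice then received 100 lux of light for 10 min (Light) or a mock stimulation (Sham). The groups DMSO-Sham, DMSO-Light, U0126-Sham and U0126-Light were sampled at CT4, CT15 and CT22, in the subjective day, early night and late night, with 3 arrays in each of 12 groups. The labels name circadian times (CT), and the study's methods call them zeitgeber times. U0126 was given into the ventricle, so it was not limited to the SCN or to 1 cell type. In bulk RNA of this kind, fewer cells of a type and less RNA per cell cannot be told apart.

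5S rRNA is the smallest RNA of the large ribosomal subunit. It is transcribed by RNA polymerase III in the nucleoplasm, apart from the other rRNAs, which RNA polymerase I makes in the nucleolus. TFIIIA binds inside the 5S gene to start transcription, and the finished RNA binds the ribosomal proteins uL18 (Rpl5) and uL5 (Rpl11) in a 5S RNP before it joins the ribosome. Mammalian genomes hold arrays of nearly identical 5S copies and many scattered pseudogenes. In other cells, ERK is known to raise RNA polymerase III transcription through the factor TFIIIB, and the protein Maf1 represses it.

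Many of the 69 genes could not be told apart on these arrays. Only 37 distinct sets of 36 values occurred among them, called value profiles below. The largest profile was shared by 25 symbols and is named here by n-R5s100 (gene 100861471). A further 3 profiles were shared by 5 symbols (n-R5s101), 3 symbols (n-R5s106) and 3 symbols (n-R5s112), and the remaining 33 belonged to 1 symbol each. In all, 36 members sat in shared profiles, so a count of members counts some measurements several times. Rn5s, the older symbol for 5S rRNA, carried exactly the n-R5s100 values as well. Counts over comparisons are therefore given for members and for profiles, and counts after leaving out an array or changing a setting for members only. Sequences of genes and probes were not compared. A profile of 1 symbol therefore does not show that its gene was read apart from other copies.

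All the shared profiles came from chromosome 8. RefSeq places 42 members there and 27 on 14 other chromosomes. On chromosome 8, 41 of the 42 fell within a stretch of 50 annotated genes, where the longest uninterrupted run of 5S-type genes held 37 genes and 33 members. The exception was n-R5s93, an annotated pseudogene elsewhere on the chromosome. Annotated gene length was 121 bases for 26 members, 119 for 42 and 117 for n-R5s65. In the n-R5s100 profile, 24 of the 25 genes were 121 bases long. The X chromosome held 5 members, among them n-R5s2 (gene 115489156).

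Values are log2 intensities as the authors deposited them. Mean values over the 36 arrays ran from 4.01 for n-R5s12 to 10.96 for n-R5s100. Brightness depends on the probes as well as the RNA, so levels were compared between groups and not between genes. As a reference for background, the 95th percentile of 5245 negative and background control probe sets was taken on each array, and it lay between 6.82 and 7.30. Of the members, 47 (15 profiles) exceeded it on all 36 arrays, 8 on some arrays and 14 on none. All 25 symbols of the n-R5s100 profile were in the first class. The 14 dim genes included n-R5s7, n-R5s12, n-R5s58, n-R5s60, n-R5s93 and n-R5s204.

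Across the arrays as a whole, the medians of all probe sets lay between 4.51 and 4.66. The lowest mean correlation with the other arrays, 0.986, belonged to U0126-Sham replicate 3 at CT22. Xist, the RNA that coats the inactive X chromosome in female cells, read 3.24 to 3.79 on 15 arrays and 9.25 to 10.52 on 21. The mean level of 16 SCN neuron genes lay between 8.24 and 9.07, which does not measure the purity of the tissue. It correlated with the median of the 5S genes over the 36 arrays with r = -0.455 (-0.351 within groups), and that of 8 genes of excitatory neurons outside the SCN with r = 0.414 (0.277 within groups). Their part in the 5S levels was not tested. Differences were tested with limma over all 65956 probe sets, and a probe set was called at a Benjamini-Hochberg adjusted p of at most 0.1 with a fold change above 1.3. The number of arrays limits the precision. With 3 arrays a group, an exact permutation test (two-sided) cannot give a p below 0.1.

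n-R5s100 showed the pattern of the group. At CT4, n-R5s100 read 11.71, 11.63 and 11.37 in DMSO-Sham and 10.71, 10.79 and 10.96 in DMSO-Light. It read 11.02, 11.04 and 11.46 in U0126-Sham and 10.78, 11.56 and 10.50 in U0126-Light. The DMSO-Sham arrays at this time were above all 3 DMSO-Light arrays, and the U0126 groups overlapped each other.

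At CT15, n-R5s100 read 10.57, 9.35 and 9.30 in DMSO-Sham, the lowest group of the series, and 10.90, 10.20 and 9.89 in DMSO-Light. It read 11.30, 11.96 and 11.46 in U0126-Sham, and 11.00, 11.05 and 10.19 in U0126-Light. Every U0126-Sham array was above every other array at CT15. Replicate 1 of DMSO-Sham stood apart from the other two DMSO-Sham arrays and overlapped the DMSO-Light group.

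At CT22, n-R5s100 read 11.36, 11.15 and 10.83 in DMSO-Sham and 11.96, 11.58 and 11.22 in DMSO-Light. It read 11.15, 10.71 and 10.82 in U0126-Sham and 10.83, 11.02 and 11.15 in U0126-Light. DMSO-Sham overlapped each of the other groups, the U0126 groups overlapped each other, and the DMSO-Light arrays were all above the U0126 arrays.

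Ordered by mean level of n-R5s100, the top groups were DMSO-Light at CT22 with 11.59 ± 0.37 (SD, n = 3), U0126-Sham at CT15 with 11.57 ± 0.34 (SD, n = 3) and DMSO-Sham at CT4 with 11.57 ± 0.18 (SD, n = 3). These 3 did not differ beyond their spread. U0126-Sham at CT4 (11.17 ± 0.25), DMSO-Sham at CT22 (11.11 ± 0.27), U0126-Light at CT22 (11.00 ± 0.16), U0126-Light at CT4 (10.95 ± 0.55), U0126-Sham at CT22 (10.89 ± 0.23), DMSO-Light at CT4 (10.82 ± 0.13) and U0126-Light at CT15 (10.75 ± 0.48) followed, each within the spread of its neighbours. The lowest groups were DMSO-Light at CT15 with 10.33 ± 0.52 (SD, n = 3) and DMSO-Sham at CT15 with 9.74 ± 0.72 (SD, n = 3), whose arrays overlapped. The median of the 37 profiles spanned 5.99 to 8.17 over the arrays, with the lowest value in DMSO-Sham at CT15 and the highest in U0126-Sham at CT15.

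**Figure D1:**
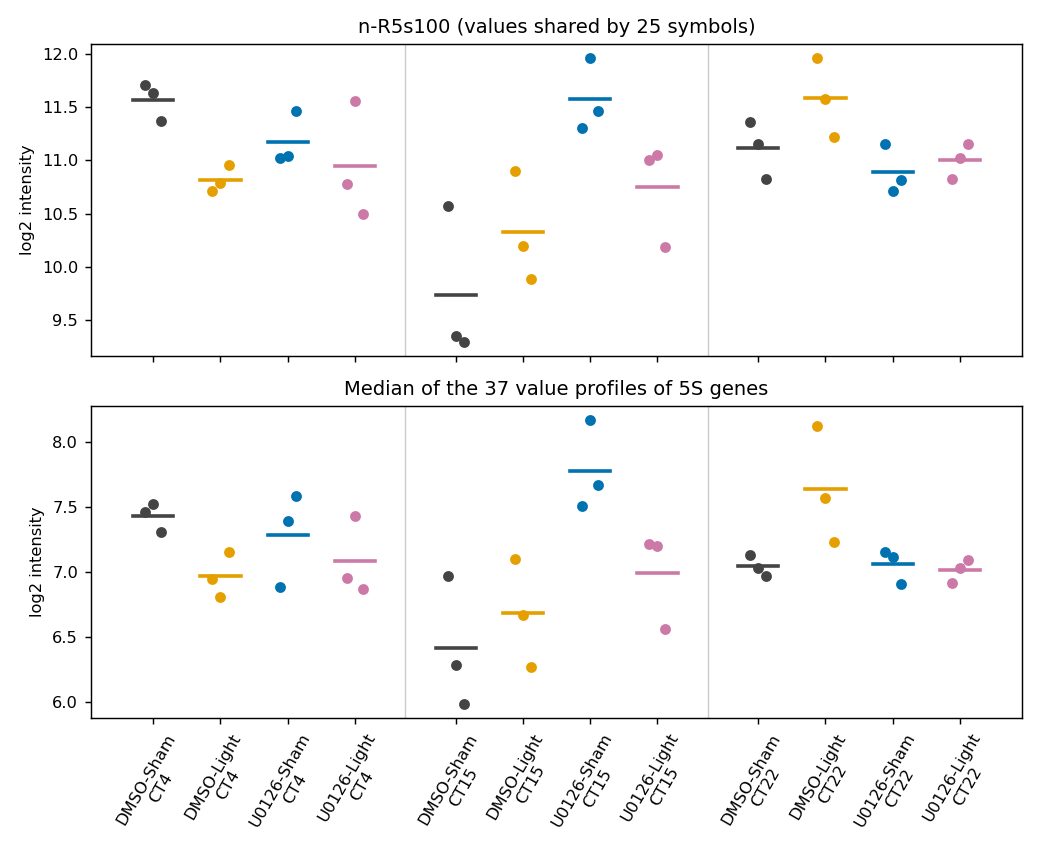
Log2 intensity on each of the 36 arrays for n-R5s100 (top) and for the median of the 37 value profiles (bottom), with each array a point, each group mean a horizontal bar and the 3 times side by side. In DMSO-Sham at CT15, n-R5s100 fell on 9.30 to 10.57, below the 11.30 to 11.96 of U0126-Sham at the same time.

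The profiles rose and fell together across arrays. Pearson's r with n-R5s100 over the 36 arrays had a median of 0.895 among the other 36 profiles and ran from 0.602 (n-R5s7) to 0.997. After group means were removed, the median was 0.872 and the range 0.447 to 0.993. The profiles share the same arrays and libraries, so these values are a description with no test. The least similar profiles, n-R5s7, n-R5s197 and n-R5s12, are annotated pseudogenes with mean values of 5.01, 6.17 and 4.01. None of the 3 exceeded the 95th percentile of the control probe sets on any array.

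**Figure D2:**
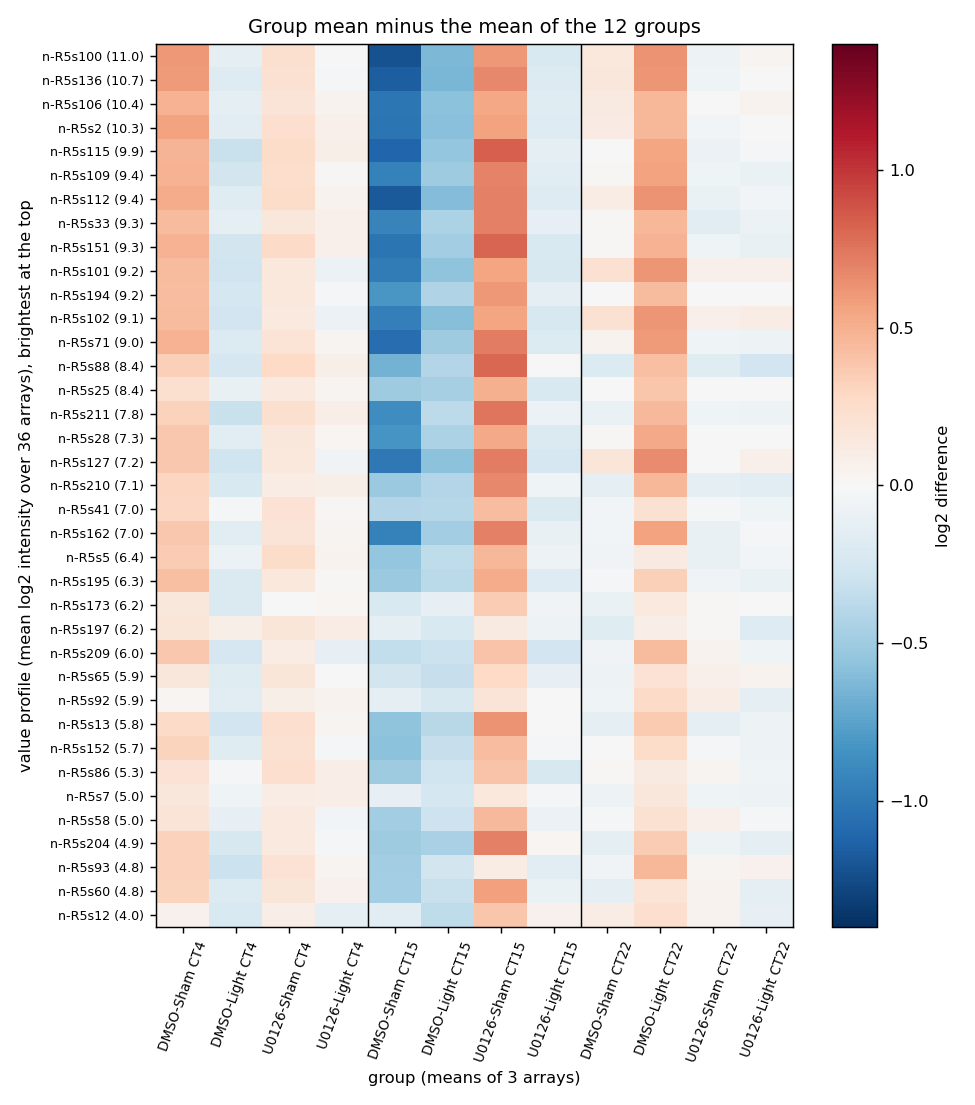
Mean log2 intensity of each value profile in each group minus its mean over the 12 groups, on a colour scale in log2 units, with profiles ordered by mean level (in brackets) and vertical lines between times. DMSO-Sham at CT15 is the bluest column, and U0126-Sham at CT15 is red in the same rows.

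Nearly all 5S genes read higher with U0126 than with DMSO at CT15 without light. Of 69 members, 66 were called higher in U0126-Sham than in DMSO-Sham and none lower, or 34 of 37 profiles. The 47 members above the control percentile on all 36 arrays were all called. Of the 14 above it on none, all but n-R5s7, n-R5s92 and n-R5s197 were called, so some calls rest on signal no brighter than that percentile. Of all probe sets tested, 3.41% were called higher. The median difference over profiles was 1.20 (log2), a 2.30-fold difference, and the median over all probe sets was 0.0090. All 3 U0126-Sham arrays were above all 3 DMSO-Sham arrays for 67 members (35 profiles), against 13.1% of all probe sets.

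The largest differences belonged to profiles annotated as rRNA. n-R5s115 (gene 115487075, chromosome 8) read 9.71, 8.46 and 8.17 in DMSO-Sham and 10.53, 11.15 and 10.51 in U0126-Sham at CT15. The groups did not overlap, and n-R5s115 rose by 1.95 (standard error 0.32, limma adjusted p = 0.000844), or 3.86-fold. n-R5s112, shared by 3 symbols of chromosome 8, read 9.04, 7.87 and 7.66 against 9.89, 10.40 and 9.92 and rose by 1.88 (standard error 0.30, adjusted p = 0.000844). n-R5s151, a profile of 1 symbol on chromosome 7, read 9.10, 8.00 and 7.73 against 9.89, 10.46 and 9.99. It rose by 1.84 (standard error 0.28, adjusted p = 0.000844). In each of these genes, replicate 1 was again the highest DMSO-Sham array.

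n-R5s100 rose by 1.83 (standard error 0.30, adjusted p = 0.000844), or 3.56-fold. Its 95% confidence interval reached from 1.22 to 2.44. n-R5s136, the only member whose probe set had no assigned chromosome, rose by 1.83 and n-R5s71, a pseudogene on chromosome 11, by 1.79. n-R5s2 of the X chromosome read 10.02, 8.94 and 8.80 in DMSO-Sham and 10.60, 11.15 and 10.76 in U0126-Sham and rose by 1.58 (standard error 0.26, adjusted p = 0.00107). On other chromosomes 24 of 27 profiles were called, with a median difference of 1.04, and on chromosome 8 10 of 10, with a median of 1.67. The difference between locations was not tested.

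**Figure D3:**
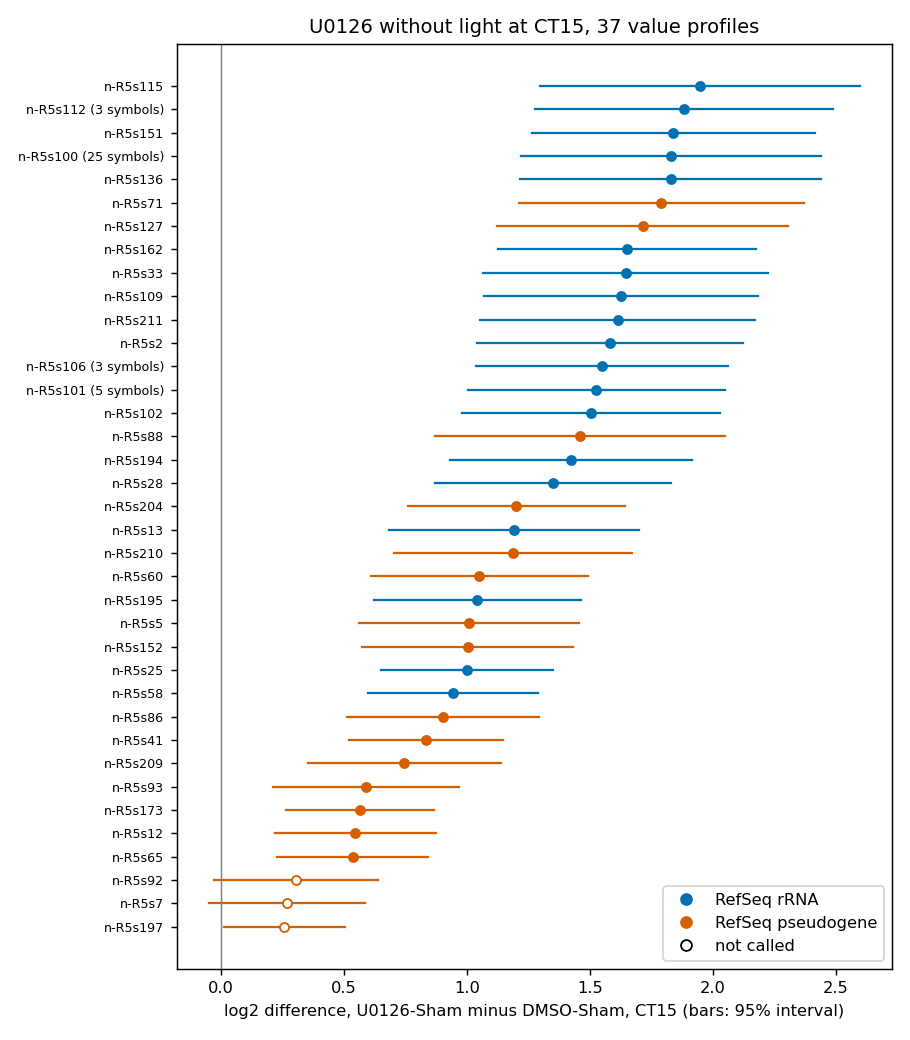
Log2 difference of U0126-Sham minus DMSO-Sham at CT15 for each of the 37 value profiles, with 95% confidence intervals from limma, coloured by RefSeq class, and open circles for the 3 that were not called. Differences run from 0.26 for n-R5s197 to 1.95 for n-R5s115, and all 37 are above 0.

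The 3 members not called were the pseudogenes n-R5s7, n-R5s92 and n-R5s197, with differences of 0.27, 0.31 and 0.26 and limma adjusted p-values of 0.518, 0.458 and 0.353. n-R5s7 read 4.84, 4.87 and 4.94 in DMSO-Sham and 5.13, 5.41 and 4.92 in U0126-Sham, and its groups overlapped by 1 array. By annotation, 19 of 19 rRNA profiles were called with a median of 1.58, and 15 of 18 pseudogene profiles with a median of 0.87. Profiles with a mean of at least 8 had a median of 1.63 (15 of 15 called), and those below 8 a median of 0.97 (19 of 22 called). Over the 37 profiles, mean level and the difference correlated with r = 0.793 (Spearman's rho 0.780). Signal near background narrows a difference on this scale, and annotation, location and brightness overlap, so their parts cannot be told apart.

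Most of the calls did not need any single array. Leaving out each of the 6 arrays in turn left 59 to 66 members called, with the fewest without DMSO-Sham replicate 3. The dim pseudogenes n-R5s93 and n-R5s12 stayed called in only 1 and 2 of these 6 fits. Xist read 10.51, 3.24 and 3.41 in DMSO-Sham and 10.52, 9.88 and 3.79 in U0126-Sham at CT15. Among arrays with high Xist, n-R5s100 read 10.57 in DMSO-Sham and 11.30 and 11.96 in U0126-Sham. Among those with low Xist it read 9.35 and 9.30 against 11.46, and 65 members were called with Xist as a covariate. With so few arrays in each part, the split is a description with no test. The covariate was chosen after the data were seen. Shares of all probe sets called are not given for that fit or for those without an array.

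Markers of other cells also moved at CT15. Of 12 markers of meningeal fibroblasts, 5 were called lower in U0126-Sham (Slc22a8, Slc6a20a, Mgp, Prg4 and Igf2), beside 48 of the 65956 probe sets. The mean level of the list was 6.30 to 6.46 in DMSO-Sham and 5.46 to 6.11 in U0126-Sham. Over the 36 arrays, that level correlated with the 5S median with r = -0.192 (0.074 within groups), and its part in the 5S result was not tested. Olig2 was the only 1 of 7 oligodendrocyte markers called lower. No marker of SCN neurons (16 genes), astrocytes (7), microglia (8), endothelial cells (8) or choroid plexus (8) was called. Dusp6 and Spry4, feedback inhibitors that ERK signalling induces, fell by 0.61 and 0.45 (adjusted p = 0.0121 and 0.0371), while Dusp4 (-0.39, adjusted p = 0.153) and Spry2 (-0.21, adjusted p = 0.448) of the same list were not called.

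At CT4 and CT22 no 5S gene was called for U0126 without light. At CT4, 0 of 69 members and 0% of all probe sets were called with limma. Of the members, 0 had an unadjusted p under 0.05, beside 3667 of the 65956 probe sets. The median over profiles was -0.20, and n-R5s100 differed by -0.40 with a 95% confidence interval from -1.01 to 0.22. At CT22, 0 members and 1.12% of all probe sets were called, and 0 members had an unadjusted p under 0.05, beside 5942 of the 65956 probe sets. There n-R5s100 differed by -0.22, with an interval from -0.83 to 0.39. Both intervals lie below the 1.22 that bounded the CT15 difference.

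The change of the U0126 effect with time was tested directly. The effect at CT15 minus that at CT4 was called higher for 59 members (27 profiles), beside 1.02% of all probe sets, with a median of 1.39 over profiles. For n-R5s100 it was 2.23 (standard error 0.42, limma adjusted p = 0.0103). The effect at CT22 minus that at CT15 was called lower for 59 members (27 profiles), beside 2.29% of all probe sets, with a median of -1.18. For n-R5s100 it was -2.05 (standard error 0.42, adjusted p = 0.0102). Both contrasts use the same 6 arrays of CT15, so they are not independent of each other or of the CT15 result.

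Without drug or light, 5S genes had their low point at CT15. In DMSO-Sham, 63 members (31 profiles) were called lower at CT15 than at CT4, beside 1.2% of all probe sets, with a median of -0.94 over profiles. For 66 members (34 profiles) all 3 arrays at CT15 were below all 3 at CT4, against 13.3% of all probe sets. n-R5s100 fell by 1.83 (standard error 0.30, limma adjusted p = 0.000619), or to 0.281 of its CT4 level. n-R5s136 fell by 1.76, n-R5s112 by 1.69, n-R5s2 by 1.59 and n-R5s115 by 1.59. The 6 members not called were n-R5s7, n-R5s12, n-R5s65, n-R5s92, n-R5s173 and n-R5s197, with differences of -0.41 to -0.16. All 6 members are annotated pseudogenes, and 12 of 18 pseudogene profiles were called beside 19 of 19 rRNA profiles.

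Other measures differed between the same arrays. The mean level of the meningeal fibroblast list was 5.43 to 6.25 at CT4 and 6.30 to 6.46 at CT15, with 1 of 12 markers (Mgp) called higher. That of 8 genes of excitatory neurons outside the SCN was 6.86 to 7.24 at CT4 and 6.18 to 6.61 at CT15, with 1 (Oxt) called lower, and that of 7 astrocyte genes 8.34 to 8.35 and 8.12 to 8.25, with 0 called. Xist was high on all 3 arrays of CT4 (9.66 to 10.22) and read 10.51, 3.24 and 3.41 at CT15, low on the 2 arrays with the lowest n-R5s100. The dap labelling control, a bacterial RNA added to each sample, read 9.40 to 9.81 at CT4 and 10.05 to 10.47 at CT15. The part of these measures in the 5S difference was not tested.

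From CT15 to CT22 many of the genes rose again. In DMSO-Sham, 53 members (21 profiles) were called higher at CT22, beside 3.25% of all probe sets, with a median of 0.52. All 3 arrays were above all 3 of CT15 for 51 members (19 profiles), against 18.4% of all probe sets. n-R5s100 rose by 1.37 (standard error 0.30, adjusted p = 0.00234) and n-R5s101, shared by 5 symbols, by 1.19 (standard error 0.25, adjusted p = 0.00204). Of the rRNA profiles 17 of 19 were called, with a median of 0.96, and of the pseudogene profiles 4 of 18, with a median of 0.37. n-R5s115 rose by 1.12 (adjusted p = 0.0189), and without DMSO-Sham replicate 3 of CT15 it missed the threshold (0.81, adjusted p = 0.149).

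Other cell types moved in the same comparison. Of 8 markers of microglia and macrophages, 6 were called higher at CT22 (Cx3cr1, Aif1, Csf1r, C1qa, C1qb and C1qc), and the mean level of the list was 6.54 to 6.56 at CT15 and 7.13 to 7.55 at CT22. Of 12 meningeal fibroblast markers 7 were called lower, beside 1790 of the 65956 probe sets. Their mean level was 6.30 to 6.46 at CT15 and 5.45 to 5.82 at CT22. The dap labelling control read 8.54 to 9.03 on the 12 arrays of CT22, below all 24 arrays of CT4 (9.40 to 10.02) and CT15 (9.63 to 10.47). The phe, lys and thr controls also had lower ranges at CT22, which overlapped those of CT4. The part of these cells and of the labelling in the 5S difference was not tested.

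No 5S gene was called at CT22 against CT4. Of the 69 members, 0 were called with limma, beside 3.15% of all probe sets. An unadjusted p under 0.05 was found for 6 members (6 profiles), beside 11217 of the 65956 probe sets. The median was -0.41, and for 58 members (30 profiles) all 3 arrays at CT22 were below all 3 at CT4, against 9.9% of all probe sets. The smallest adjusted p of a member was 0.109. n-R5s100 differed by -0.46, with a 95% confidence interval from -1.07 to 0.15. The comparisons between times and those of U0126 at CT15 share the DMSO-Sham arrays of CT15, and 3 times do not describe a rhythm.

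No 5S gene was called for light in vehicle. In vehicle at CT4, 0 members and 0% of all probe sets were called with limma. An unadjusted p under 0.05 was found for 59 members (27 profiles), beside 4629 of the 65956 probe sets. The median was -0.57, and for 66 members (34 profiles) all 3 DMSO-Light arrays were below all 3 DMSO-Sham arrays, against 7.41% of all probe sets. n-R5s100 differed by -0.75 (interval -1.36 to -0.14, adjusted p = 0.653), and the smallest adjusted p of a member was 0.591. Xist read 3.29 to 3.39 in DMSO-Light and 9.66 to 10.22 in DMSO-Sham at CT4, so light and Xist cannot be told apart within this comparison.

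At CT15 and CT22 the median lay above 0. At CT15, DMSO-Light against DMSO-Sham gave 0 members called and a median of 0.25, beside 0.105% of all probe sets called. The unadjusted p was under 0.05 for 0 members, beside 4483 of the 65956 probe sets. n-R5s100 differed by 0.59 (interval -0.02 to 1.20, adjusted p = 0.740). At CT22 the same comparison gave 0 members called and a median of 0.43, beside 0.66% of all probe sets called. There 10 members (10 profiles) had an unadjusted p under 0.05, beside 5143 of the 65956 probe sets. n-R5s100 differed by 0.47 there (interval -0.14 to 1.08, adjusted p = 0.802). These intervals include differences of more than 2-fold as well as none.

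No 5S gene was called for light under U0126. At CT15, U0126-Light against U0126-Sham had 0 members and 0% of all probe sets called with limma. The unadjusted p was under 0.05 for 65 members (33 profiles), beside 2974 of the 65956 probe sets. The median was -0.72, and for 65 members (33 profiles) all 3 U0126-Light arrays were below all 3 U0126-Sham arrays, against 4.63% of all probe sets. n-R5s151 differed most, by -1.03 (interval -1.61 to -0.45, adjusted p = 0.936), and n-R5s100 by -0.82 (interval -1.43 to -0.21, adjusted p = 0.936). At CT4 and CT22 the medians were -0.17 and -0.02, with 0 members and 0% of all probe sets called at either time. An unadjusted p under 0.05 was found for 0 members at either time, beside 2815 and 3183 of the 65956 probe sets.

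The light response under U0126 minus that in DMSO was tested as a difference of differences. At CT15 its median was -0.85 and n-R5s100 gave -1.41 (standard error 0.42, limma adjusted p = 0.487). No member was called (0 of 69), and 0% of all probe sets were called. For 63 members (31 profiles) the unadjusted p was under 0.05, beside 3964 of the 65956 probe sets. Without DMSO-Sham replicate 1 of CT15, however, 50 members were called lower, so the outcome changed with 1 array. The share of all probe sets called without that array is not given here, so this count has no background. At CT4 (median 0.41) and CT22 (median -0.42), 0 members and 0% of all probe sets were called. An unadjusted p under 0.05 was found for 0 and 3 members (3 profiles), beside 2006 and 3515 of the 65956 probe sets. The CT4 contrast uses the DMSO-Light arrays, the only group of that time with low Xist, so Xist cannot be told apart from it.

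With light given in both arms, no 5S gene was called for U0126. At CT4 the median of U0126-Light minus DMSO-Light was 0.19, with 0 members and 0.0136% of all probe sets called. The unadjusted p was under 0.05 for 0 members, beside 2658 of the 65956 probe sets. Xist read 3.29 to 3.39 in DMSO-Light and 9.44 to 10.21 in U0126-Light at CT4, so U0126 and Xist cannot be told apart there. At CT15 the 5S median was 0.30, with 0 members and 0.233% of all probe sets called. There 2 members (2 profiles) had an unadjusted p under 0.05, beside 6893 of the 65956 probe sets. n-R5s100 differed by 0.42 at CT15, with an interval from -0.19 to 1.03, which lies below the 1.22 that bounded its difference without light. Setting these intervals side by side does not test their difference. The direct test is the light response under U0126 minus that in DMSO at CT15, in which 0 of 69 members were called. At CT22 the median was -0.47, with 0 members and 0.0136% of all probe sets called. The unadjusted p was under 0.05 for 24 members (18 profiles), beside 4603 of the 65956 probe sets. There all 3 U0126-Light arrays were below all 3 DMSO-Light arrays for 48 members (18 profiles), against 5.87% of all probe sets.

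**Figure D4:**
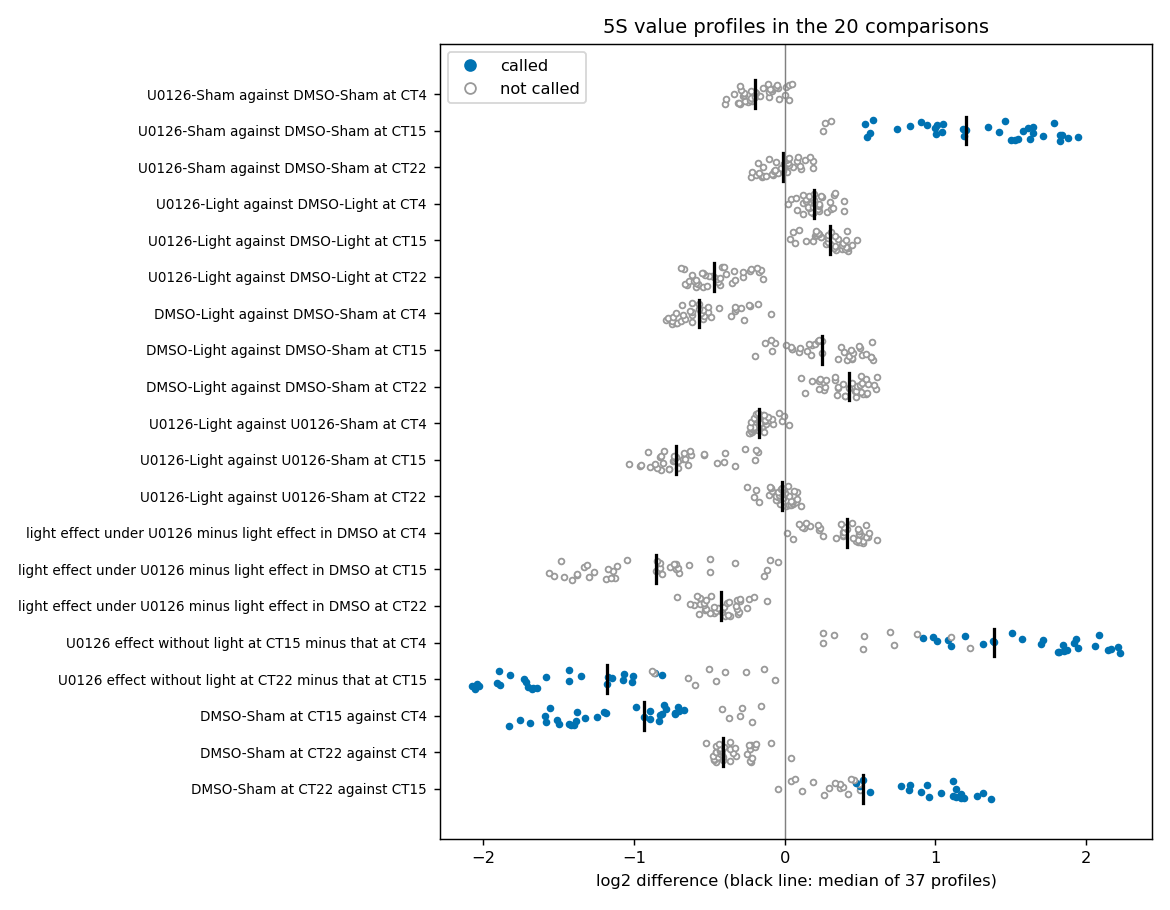
Log2 differences of the 37 value profiles in the 20 comparisons, each profile a circle (filled where called) and the median a black line. Called profiles occur in 5 comparisons, all of which use the DMSO-Sham arrays of CT15, and the medians of those 5 run from -1.18 to 1.39.

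Of the genes whose products make or carry 5S rRNA, those called depended on the comparison. TFIIIA (Gtf3a) read 7.05 ± 0.017 (SD, n = 3) in DMSO-Sham and 6.88 ± 0.079 (SD, n = 3) in U0126-Sham at CT15 (adjusted p = 0.197), and Rpl11 differed by -0.14 (adjusted p = 0.126). Of 8 measured genes for the 5S RNP and 5S transcription, 0 were called for U0126 at CT15 and 1 for CT15 against CT4 in DMSO-Sham. That gene, Ssb, encodes La, which binds the 3′ end of new RNA polymerase III transcripts, and it rose by 0.38 (adjusted p = 0.0127). Of 33 genes for RNA polymerase III and its factors, 0 were called in these comparisons, and Maf1 differed by -0.10 for U0126 at CT15 (adjusted p = 0.558). At CT22 against CT15 in DMSO-Sham, 3 of the 33 were called higher, the polymerase subunits Polr2f by 0.79 (adjusted p = 7.82e-06), Polr2l by 0.74 (adjusted p = 0.000133) and Polr1d by 0.40 (adjusted p = 4e-04), which other RNA polymerases share. Polr2f (0.54, adjusted p = 0.00159) and Polr2l (0.43, adjusted p = 0.0357) were also called higher at CT22 against CT4. Rpl5 was not analysed here.

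Other RNA polymerase III transcripts were called at some times. For U0126 at CT15, 0 of 10 listed genes were called, a list that leaves out Rnu6, the RNA polymerase III transcript U6, which was called higher. Rny3, a Y RNA, differed by 0.51 (adjusted p = 0.160) and Rmrp, the RNA of the enzyme RNase MRP, by 0.25 (adjusted p = 0.655). For CT15 against CT4 in DMSO-Sham, 2 of 10 were called lower, Rny3 with a fall of 0.58 (adjusted p = 0.0704) and Rmrp with a fall of 0.56 (adjusted p = 0.0752). For CT22 against CT15, 4 of 10 were called higher, with Rmrp at 0.88, Vaultrc5, a vault RNA, at 0.75, Rny3 at 0.69 and Rpph1, the RNA of RNase P, at 0.56. Rn7sk, which holds back the elongation factor P-TEFb, stayed at 13.33 to 13.46 in these groups, near the top of the scale.

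Other small nuclear RNAs were called in the same direction. Of 69 small nucleolar and Cajal body RNA genes, 21 were called higher for U0126 at CT15 and 0 lower, with a median of 0.39. Of 14 genes listed as spliceosomal RNA, 7 were called higher, among them U1 genes (Rnu1a1, Rnu1b1, Rnu1b2 and Rnu1b6), Rnu12 and Rnu6, and the median was 0.47. For CT15 against CT4 in DMSO-Sham, 10 of the 14 were called lower, of which 5 (Rnu3a and 4 Rnu3b genes) are copies of U3, a nucleolar RNA that processes pre-rRNA. Among RefSeq snRNA probe sets, 299 of 928 were called higher for U0126 at CT15, and among protein-coding ones 14 of 19299 were called higher and 23 lower. The summary level of the snRNA probe sets was 3.67 to 4.04 over the arrays, below the control percentile of 6.82 to 7.30. The median of all probe sets at CT15 was 4.615 to 4.658 in U0126-Sham and 4.549 to 4.556 in DMSO-Sham. The part of background signal and of this shift in the snRNA count was not tested. Over the 36 arrays, the 5S median correlated with the mean level of the 69 small nucleolar and Cajal body RNAs with r = 0.704 (0.771 within groups). With that of 20 ribosomal protein genes it gave 0.081 (0.146 within groups), and 0 of those 20 were called for U0126 at CT15. All these values share the arrays and are a description with no test.

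**Figure D5:**
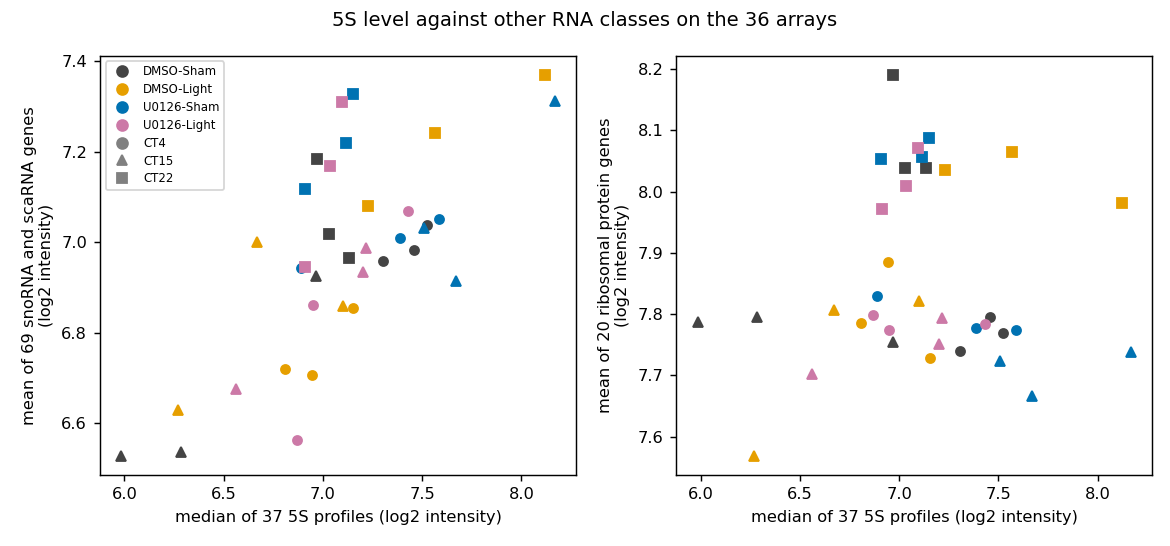
Median log2 intensity of the 37 5S profiles on the x axis against the mean level of 69 small nucleolar and Cajal body RNA genes (left) and of 20 cytosolic ribosomal protein genes (right), with each array a point, colours for treatment and shapes for time. The left panel rises with the 5S level (r = 0.704 over 36 arrays) and the right panel does not (r = 0.081).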

How the data were processed

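Array values were deposited by the authors as log2 intensities, made in R with the package oligo, and were used as deposited. The exact call and the genome build are not given in the sources used here. Of 72688 probe sets, 6732 controls were left out. Symbols come from the platform annotation (30638 probe sets with 1 symbol), and classes, lengths and gene order from RefSeq. No library preparation step that removes rRNA is named in the labels, and 100 ng of RNA was used per array. By the labels the infused volume was 3 µL and the interval from pulse to dissection 60 min, which the study's methods give otherwise.

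All 36 arrays entered 1 fit of 12 group means in limma 3.58.1 (R 4.3.3), with eBayes and 24 residual degrees of freedom, and p-values were adjusted within each of 20 comparisons. The fit was tested on simulated data. The methods describe the pools as independent. Members and lists were chosen with earlier results of these data known. Named are the profile with most symbols, the 6 brightest and 6 dimmest profiles, the 6 largest called changes in each comparison and, of the 10 brightest, the smallest change at CT15, plus genes of the short pathway lists. Others were named after their values were seen.

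Pairing by replicate number was examined through correlations of deviations from group means. All 3 correlations passed 0.1 in 2 of 18 pairs of groups, DMSO-Sham with U0126-Sham at CT4 and DMSO-Light with U0126-Light at CT15, and the block left 0 members called in both. The highest correlation of 2 arrays was 0.997 and none were identical. Probe sets with 1 symbol only and Xist as a covariate were alternatives chosen after seeing the data. Figures were drawn with Python.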

Additional observations from a re-analysis of the deposited data

Results flagged for a closer look

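The U0126 effect without light differed between times for the 5S genes, by a test of the difference itself. The effect at CT15 minus that at CT4 was called for 59 of 69 members, all higher, beside 1.02% of all probe sets called higher. The effect at CT22 minus that at CT15 was called for 59, all lower, beside 2.29% called lower. Leaving out each array in turn gave 48 to 61 and 46 to 61 members, with the fewest in both without DMSO-Sham replicate 3 of CT15. The share of all probe sets called is not given for those fits. Both contrasts rest on the DMSO-Sham arrays of CT15, on which n-R5s100 read 10.57, 9.35 and 9.30, while DMSO-Sham at CT4 and CT22 read between 10.83 and 11.71.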

How the results depend on the processing

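Under 12 alternatives, the number of members called for U0126-Sham against DMSO-Sham at CT15 stayed between 61 and 66, and for DMSO-Sham at CT15 against CT4 between 60 and 64 under 11. It was 48 to 56 for CT22 against CT15. With the replicate block, 66 members were called for U0126 at CT15. The block changed no count of calls by over 1.5 times. With quantile normalization fitted without small RNAs, 1 member (n-R5s197, -0.41, adjusted p = 0.0445 with limma) was called for DMSO-Sham at CT22 against CT4, where 0 had been. Leaving out 1 array at a time, the light effect under U0126 minus that in DMSO at CT15 had 0 to 50 members called, with 50 without DMSO-Sham replicate 1, and the cause was not tested. Leaving out 1 array gave 52 to 63 for CT15 against CT4 and 41 to 59 for CT22 against CT15. Shares of all probe sets are not given for the counts under alternatives or without an array. Of named genes, n-R5s7 alone changed sign, without a call, at CT22 against CT15 in DMSO-Sham (-0.02 to 0.05 over alternatives). Of named genes, calls of n-R5s12, n-R5s58 and n-R5s93 alone changed under alternatives that kept all arrays, n-R5s12 only at an adjusted p of 0.05. n-R5s93 at CT15 (0.59, adjusted p = 0.0913) missed the threshold with cyclic loess (0.133), with probe sets of 1 symbol (0.127) and with Xist as a covariate (0.105). Signal over background limits the 14 dimmest members.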

Other observations

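Small nuclear and nucleolar RNAs also differed between times in DMSO-Sham. Of 69 small nucleolar and Cajal body RNA genes, 12 were called lower and 3 higher at CT15 than at CT4 (median -0.32), and 24 higher and 4 lower at CT22 than at CT15 (median 0.36). Of all 65956 probe sets, 789 were called lower and 670 higher in the first comparison, and 2141 higher and 1790 lower in the second. Of the 14 genes listed as spliceosomal RNA, a list that includes copies of U3, 12 were called higher at CT22 than at CT15, with a median of 0.49. Rpf2, which helps load the 5S RNP onto the forming ribosome, fell by 0.50 (limma adjusted p = 0.000144) from CT15 to CT22 and Ssb fell by 0.47 (adjusted p = 0.000535). Of 20 ribosomal protein genes, 4 were called higher in that comparison (Fau, Rpl37a, Rplp0 and Rps10). These comparisons share the DMSO-Sham arrays of CT15 with each other.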
